A study of Mus musculus with 12 samples.

Results

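Type 1 conventional dendritic cells are described here through 9 genes, taken as a list of symbols: Wdfy4, Irf8, Batf3, Clec9a, Xcr1, Itgae, Flt3, Zbtb46 and Cadm1. All 9 were found among the 24956 gene symbols measured, and all 9 passed the filter on low counts, as did 12856 genes in total. The tumours were grown from PDA.69, a line of pancreatic ductal adenocarcinoma derived from KPC mice, which the labels describe as T cell-low. There were 12 tumours: 6 grew in Alb-Cre+/+ STAT3f/f host mice (Alb-Cre Stat3f/f), in which the albumin promoter drives Cre and Stat3 is deleted in hepatocytes, and 6 in wild-type (WT) host mice. The same tumour line was used in both hosts, so the deleted allele belongs to the host and not to the cancer cells. The sources used here do not give age, sex or time of tumour growth, and no label says that each tumour came from a different mouse. The p-values therefore measure only the spread between these samples, which may be technical.

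Type 1 conventional dendritic cells (cDC1) take up dying cells and show their antigens on MHC class I to CD8 T cells, a process called cross-presentation. Their development needs the transcription factors Irf8 and Batf3, which bind DNA together, and the growth factor receptor Flt3. In mouse tumours they are a rare population known for starting CD8 T cell responses. Most of the genes are shared with other cells. Irf8 is also used by monocytes, macrophages, B cells and plasmacytoid dendritic cells, Wdfy4 by B cells, Itgae by T cells within epithelia, Zbtb46 by other dendritic cells and by endothelium, and Cadm1 by many epithelial cells. Clec9a and Xcr1 are the most restricted of them, and both had counts in all 12 tumours, with lows of 14 counts for Clec9a and 10 counts for Xcr1.

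The stretches of DNA just upstream of a RefSeq transcript start are shown for Wdfy4 and Irf8, the genes that changed, and for Zbtb46, the member with a motif match. Promoters of 7 of the 9 genes were found in the RefSeq table (GRCm38.p6), those of Wdfy4, Irf8, Batf3, Clec9a, Xcr1, Flt3 and Zbtb46. Each window is the 250 bases before that start, which is the outer start of the gene in GENCODE for Irf8 but lies 442 bases inside the gene for Wdfy4 and 35038 bases inside it for Zbtb46. It is read 5′ to 3′ on the strand of the gene. Capitals mark the match to TGANTCA, the site of the AP-1 and BATF families.
Wdfy4, chr14:33185067-33185316, minus strand: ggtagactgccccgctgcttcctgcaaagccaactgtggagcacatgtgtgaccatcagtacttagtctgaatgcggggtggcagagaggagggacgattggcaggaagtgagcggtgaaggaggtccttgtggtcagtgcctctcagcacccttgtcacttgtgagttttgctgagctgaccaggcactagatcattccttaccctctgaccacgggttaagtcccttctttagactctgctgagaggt
Irf8, chr8:120736108-120736357, plus strand: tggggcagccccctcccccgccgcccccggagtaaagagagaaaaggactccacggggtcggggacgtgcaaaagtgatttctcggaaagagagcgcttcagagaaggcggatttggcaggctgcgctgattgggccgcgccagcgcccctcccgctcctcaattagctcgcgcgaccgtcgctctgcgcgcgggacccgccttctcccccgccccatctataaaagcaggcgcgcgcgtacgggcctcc
Zbtb46, chr2:181424389-181424638, minus strand: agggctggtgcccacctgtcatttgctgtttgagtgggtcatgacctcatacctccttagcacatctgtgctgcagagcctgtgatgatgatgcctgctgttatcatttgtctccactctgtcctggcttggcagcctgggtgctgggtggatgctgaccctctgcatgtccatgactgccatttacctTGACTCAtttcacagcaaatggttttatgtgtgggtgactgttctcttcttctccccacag
Both strands were searched from 250 bases before to 50 bases after the start, in 8 windows, since Irf8 had 2 starts. The match was in 1 window, that of Zbtb46, at TGACTCA between 61 and 55 bases before the start. Of 32851 promoter windows of the table, 7.81% held TGANTCA. The cores of the interferon-stimulated response element and of the ETS and IRF composite element were searched in the same way and had no match in the 8 windows, against 3.44% and 2.72% of all windows. The Irf8 window shown had 70.0% G and C over its 300 bases and that of Wdfy4 54.3%. These letters describe a short window and say nothing of enhancers farther away.

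RNA was taken by scraping fixed, paraffin-embedded sections, and libraries read the 3′ ends of transcripts, so a count does not scale with transcript length. Libraries held 5691707 to 8085609 counts. Stat3 itself had a log2 fold change of 0.00 ± 0.10, which does not bear on its deletion in another organ. The tumours differed in exocrine pancreas. The share of counts in 16 acinar genes was 22.2 ± 14.0% in Alb-Cre Stat3f/f, against 6.27 ± 7.12% in WT tumours (SD, n = 6 each; exact two-sided permutation p = 0.0325), and was above 15% in 5 tumours, Alb-Cre Stat3f/f 1 to 4 with WT 5. Genes of all leukocytes moved with host genotype as well: the mean log2 CPM (CPM, counts scaled to a common library size by TMM) of 8 pan-leukocyte genes was 5.92 ± 0.16 in Alb-Cre Stat3f/f, against 5.15 ± 0.25 in WT tumours (SD, n = 6 each; exact two-sided permutation p = 0.0022, the smallest that 924 relabellings can give), and the groups did not overlap. In bulk tissue, more cells of a type and more RNA per cell cannot be told apart.

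The cDC1 genes mostly had positive fold changes in tumours of Alb-Cre Stat3f/f over WT hosts. Wdfy4 and Irf8 rose past the threshold, 2 of 9 genes, where 2.23% of all 12856 genes tested were called higher. None of the 9 was called lower (0.747% of all genes). Of the other 7 genes, 6 had a positive fold change that did not pass, and Cadm1 had a negative one that did not pass. At an unadjusted p under 0.05 there were 6 of 9 higher (11.5% of all genes) and 1 of 9 lower (7.83% of all genes). The median log2 fold change was 0.78 over the 9 genes and 0.00 over all tested genes. A positive fold change was found for 8 of the 9 genes and for 6422 of 12856 in all. A gene was called at an adjusted p under 0.05 (quasi-likelihood test of edgeR, Benjamini-Hochberg over all tested genes). Each fold change sets Alb-Cre Stat3f/f over WT and is given ± the SE of the fit.

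**Figure D1:**
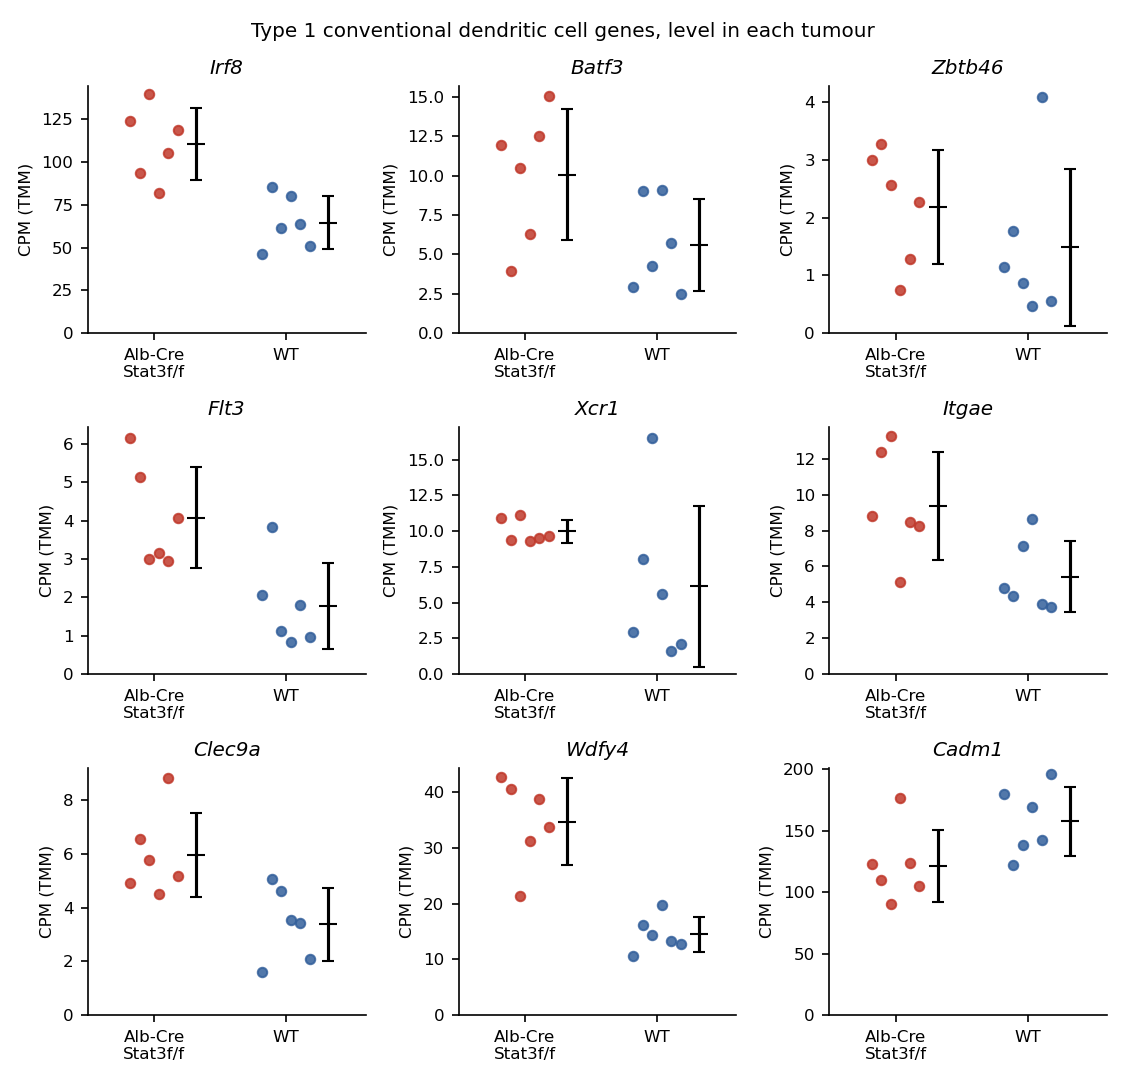
Level of each of the 9 genes in CPM (TMM-normalised, linear axes from 0) in 6 Alb-Cre Stat3f/f and 6 WT tumours; points are tumours and the bar beside them is the mean ± SD. Wdfy4 is the gene whose groups do not overlap, with a low of 21.4 CPM in Alb-Cre Stat3f/f and a high of 19.8 CPM in WT tumours.

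Among the transcription factors, Irf8 was the one that passed. Irf8 (chromosome 8, 120736358 to 120756694, plus strand, GRCm38) directs progenitors to the cDC1 and monocyte fates. Its lowest, median and highest levels were 81.9, 112 and 139.7 CPM in Alb-Cre Stat3f/f tumours, against 45.9, 62.6 and 85.3 CPM in WT tumours. The groups overlapped by a single tumour: Alb-Cre Stat3f/f 4 had the lowest level of its group, under the 85.3 CPM of WT 2. The means were 110.5 ± 21.2 CPM in Alb-Cre Stat3f/f, against 64.6 ± 15.7 CPM in WT tumours (SD, n = 6 each), a log2 fold change of 0.78 ± 0.16 with an edgeR adjusted p of 0.0117. Irf8 passed in each of the 12 fits that left out 1 tumour, with a highest edgeR adjusted p of 0.0385. It did not pass without the 5 acinar-rich tumours, where the log2 fold change was 0.79 ± 0.21 (edgeR adjusted p = 0.134). The 7 tumours left were only Alb-Cre Stat3f/f 5 and 6 of that host, with WT 1 to 4 and WT 6.

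Batf3, the partner of Irf8 in cDC1 (chromosome 1, 191097847 to 191108945, plus strand), had 3.97, 11.2 and 15.1 CPM as its lowest, median and highest level in Alb-Cre Stat3f/f tumours, against 2.495, 4.98 and 9.11 CPM in WT tumours. Every WT tumour lay below 4 of the 6 Alb-Cre Stat3f/f tumours, and Alb-Cre Stat3f/f 2 lay under the WT median. The log2 fold change was 0.86 ± 0.35 (edgeR adjusted p = 0.187), larger than that of Irf8 and with a wider error. Zbtb46, a transcription factor of all conventional dendritic cells (chromosome 2, 181387762 to 181459426, minus strand), had 4 to 25 counts per tumour. Its levels were 0.751, 2.43 and 3.27 CPM in Alb-Cre Stat3f/f tumours, against 0.473, 1.01 and 4.09 CPM in WT tumours, and the highest of all 12 was WT 5. The groups overlapped throughout, and the log2 fold change was 0.57 ± 0.52 (edgeR adjusted p = 0.587). Without WT 5 it was 1.15 ± 0.494 and without WT 4 0.37 ± 0.52 (edgeR adjusted p = 0.184 and 0.761), and with the acinar score in the fit it was 0.13 ± 0.499 (edgeR adjusted p = 0.971).

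Flt3, the receptor for the growth factor that maintains dendritic cells (chromosome 5, 147330741 to 147400489, minus strand), had 7 to 35 counts per tumour. Its lowest, median and highest levels were 2.95, 3.61 and 6.16 CPM in Alb-Cre Stat3f/f tumours, against 0.828, 1.46 and 3.83 CPM in WT tumours. The means were 4.08 ± 1.32 CPM in Alb-Cre Stat3f/f, against 1.77 ± 1.12 CPM in WT tumours (SD, n = 6 each). The log2 fold change of 1.198 ± 0.39 did not pass (edgeR adjusted p = 0.0992). WT 2 was the highest WT tumour, and without it Flt3 passed at 1.57 ± 0.38 (edgeR adjusted p = 0.0341), where 1.95% of all genes were called higher. Its ligand gene Flt3l had a log2 fold change of 0.55 ± 0.24 (edgeR adjusted p = 0.210), with 10.8 ± 3.40 CPM in Alb-Cre Stat3f/f, against 7.47 ± 2.03 CPM in WT tumours (SD, n = 6 each).

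Xcr1, the receptor by which cDC1 follow the chemokine Xcl1 (chromosome 9, 123852315 to 123862029, minus strand), lay close together in Alb-Cre Stat3f/f tumours and far apart in WT tumours. It had 9.31, 9.56 and 11.1 CPM as its lowest, median and highest level in Alb-Cre Stat3f/f tumours, against 1.63, 4.26 and 16.5 CPM in WT tumours. All 6 Alb-Cre Stat3f/f tumours lay inside the WT range, above every WT tumour but WT 3. The means were 9.97 ± 0.83 CPM in Alb-Cre Stat3f/f, against 6.13 ± 5.62 CPM in WT tumours (SD, n = 6 each), and the log2 fold change of 0.69 ± 0.44 did not pass (edgeR adjusted p = 0.422). Without WT 3 it was 1.28 ± 0.33 (edgeR adjusted p = 0.0570). Xcl1, made by activated T and natural killer cells, had 12.5 ± 4.97 CPM in Alb-Cre Stat3f/f, against 5.83 ± 4.59 CPM in WT tumours (SD, n = 6 each), a log2 fold change of 1.11 ± 0.49 (edgeR adjusted p = 0.241).

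Itgae encodes CD103, an integrin chain that binds E-cadherin on epithelium (chromosome 11, 73090583 to 73147446, plus strand). Its lowest, median and highest levels were 5.11, 8.63 and 13.3 CPM in Alb-Cre Stat3f/f tumours, against 3.74, 4.58 and 8.64 CPM in WT tumours, with 3 of 6 Alb-Cre Stat3f/f tumours over the whole WT range. The log2 fold change was 0.77 ± 0.27 (edgeR adjusted p = 0.122). Haspin lies on the opposite strand within Itgae and had 979 counts over the 12 tumours, against 585 for Itgae. The sources used here do not give the strand setting of the counting, so reads of this pair cannot be told apart with certainty.

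Cadm1, an adhesion molecule of cDC1 and of many epithelial cells (chromosome 9, 47530173 to 47857637, plus strand), had a negative fold change, unlike the other 8. Its lowest, median and highest levels were 90.7, 116 and 176 CPM in Alb-Cre Stat3f/f tumours, against 122, 155 and 196 CPM in WT tumours, with 3 of 6 Alb-Cre Stat3f/f tumours under the whole WT range. The log2 fold change was -0.38 ± 0.15 (edgeR adjusted p = 0.161). Alb-Cre Stat3f/f 4 was the highest of its group, and without it Cadm1 was called lower at -0.52 ± 0.13 (edgeR adjusted p = 0.0249), where 1.51% of all genes were called lower. Of 8 ductal epithelial genes tested, Sox9, a transcription factor of ductal cells, and Krt7, a keratin, fell (log2 fold changes -0.49 ± 0.10 and -0.59 ± 0.12, edgeR adjusted p = 0.0103 and 0.0113), 0 rose and 6 did not pass. The summed level of the 8 was 2534 to 3296 CPM in Alb-Cre Stat3f/f, against 3472 to 4067 CPM in WT tumours. With the host means removed, Cadm1 and the ductal score had Pearson r = 0.28 over 12 tumours (permutation p = 0.377, adjusted 0.720) and Spearman rho = 0.27 (permutation p = 0.419, adjusted 0.762), with r = -0.14 without WT 2 and WT 6. Their r was -0.26 within Alb-Cre Stat3f/f and 0.68 within WT tumours.

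The genes of antigen uptake and processing were Clec9a and Wdfy4. Clec9a is a receptor for actin exposed by dead cells (chromosome 6, 129408862 to 129424763, plus strand). It had 4.51, 5.49 and 8.84 CPM as its lowest, median and highest level in Alb-Cre Stat3f/f tumours, against 1.59, 3.49 and 5.06 CPM in WT tumours. The WT range ended below 4 of the 6 Alb-Cre Stat3f/f tumours, and the log2 fold change of 0.82 ± 0.31 did not pass (edgeR adjusted p = 0.146). Clec1b overlaps Clec9a on the same strand and had 49 counts in all, against 377 for Clec9a.

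Wdfy4, a large protein needed for cross-presentation by cDC1 (chromosome 14, 32959547 to 33185508, minus strand), had the smallest p of the 9 genes and the 12th smallest of 12856. Its lowest, median and highest levels were 21.4, 36.3 and 42.8 CPM in Alb-Cre Stat3f/f tumours, against 10.7, 13.8 and 19.8 CPM in WT tumours. The groups did not overlap, with all 6 Alb-Cre Stat3f/f tumours higher; this held for 1 of the 9 genes and for 1.37% of all genes tested, and the reverse for 0 of the 9 and 0.646% of all genes. The means were 34.8 ± 7.84 CPM in Alb-Cre Stat3f/f, against 14.5 ± 3.15 CPM in WT tumours (SD, n = 6 each), a 2.40-fold difference (log2 fold change 1.26 ± 0.18, edgeR adjusted p = 0.000686). Wdfy4 passed in all 12 fits that left out 1 tumour, with log2 fold changes of 1.19 to 1.37. With the acinar score in the fit the log2 fold change was 1.36 ± 0.19 (edgeR adjusted p = 0.000761), and without the 5 acinar-rich tumours 1.30 ± 0.22 (edgeR adjusted p = 0.0130). That last fit kept only Alb-Cre Stat3f/f 5 and 6 of their host, with WT 1 to 4 and WT 6. With the acinar score 2 of the 9 genes were called higher, Wdfy4 and Irf8 (1.10% of all genes). Wdfy4 was the 1 gene of the 9 called higher without the acinar-rich tumours (0.607% of all genes) and in a test against a fold of 1.2 (0.778%).

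**Figure D2:**
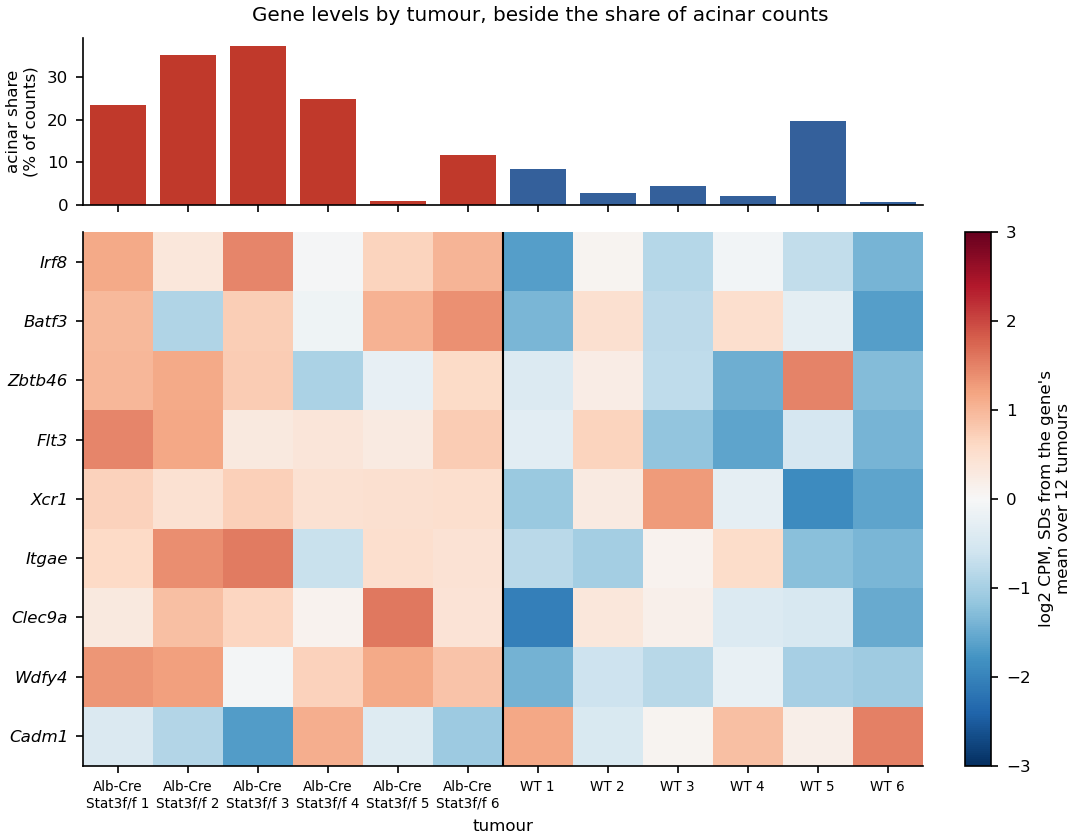
Level of the 9 genes in each tumour as SDs of log2 CPM from the mean of the gene over 12 tumours (colour), under bars of the share of counts in acinar genes (percent). Most cells of Alb-Cre Stat3f/f tumours are above the mean except for Cadm1; Alb-Cre Stat3f/f 5, with 0.725% acinar counts, is above the mean for 7 genes, and below it for Zbtb46 and Cadm1.

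The rise was next set against the rise of leukocyte genes as a whole. The difference in log2 level of each gene over the mean of the 8 pan-leukocyte genes was tested over the 12 tumours by exact permutation, two-sided. Wdfy4 exceeded the pan-leukocyte genes by 0.47 (exact permutation p = 0.0433, adjusted over all genes 0.0591), which missed the threshold after adjustment. It passed without WT 4 (0.55, exact permutation p = 0.0238, adjusted 0.0377) and without Alb-Cre Stat3f/f 3 (0.60, exact permutation p = 0.00866, adjusted 0.0174). It did not pass in the other 10 fits that left out 1 tumour (adjusted exact permutation p of 0.0616 to 0.110), nor over Ptprc alone (0.43, exact permutation p = 0.0909, adjusted 0.116). Irf8 differed from them by 0.02 (exact permutation p = 0.918), Batf3 by 0.08 (0.816), Clec9a by 0.06 (0.827) and Itgae by -0.01 (0.985). These 4 differences were small, though a p that misses the threshold does not show that the genes moved alike. Flt3 exceeded them by 0.42 (exact permutation p = 0.160), and passed without WT 2 at 0.61 (exact permutation p = 0.0238, adjusted 0.0348). Xcr1 exceeded them by 0.33 (exact permutation p = 0.535), which was 0.0051 without WT 5 and 0.72 without WT 3 (exact permutation p = 1 and 0.0736), and Zbtb46 lay under them by 0.12 on the log2 scale (difference -0.12, exact permutation p = 0.760). Of the 9 genes 0 were called higher on this scale after adjustment (0.334% of all genes). Cadm1 was the 1 called lower, as were 70.9% of all genes, at -1.16 (exact permutation p = 0.00649, adjusted 0.0127). With so many genes called lower, adjustment over all genes raised each p-value little. A pass of Wdfy4 or Flt3 on this scale is therefore close to an unadjusted one. The share of all genes called higher on this scale was not counted with 1 tumour left out.

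With the pan-leukocyte score as a covariate in the edgeR fit, 0 of the 9 genes were called higher (0.00778% of all genes) and 0 lower (0.00% of all genes). Wdfy4 had a log2 fold change of 0.87 ± 0.39 and Irf8 of 0.07 ± 0.31 (edgeR adjusted p = 0.9998 for both). Those of Batf3, Flt3 and Zbtb46 turned negative, at -0.93 ± 0.67, -0.31 ± 0.80 and -2.24 ± 0.95, and that of Cadm1 positive, at 0.30 ± 0.27. The score did not overlap between hosts, so host and leukocyte genes are hard to tell apart in this fit. Its SEs were 0.27 to 1.18 for the 9 genes, against 0.15 to 0.52 with genotype alone.

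**Figure D3:**
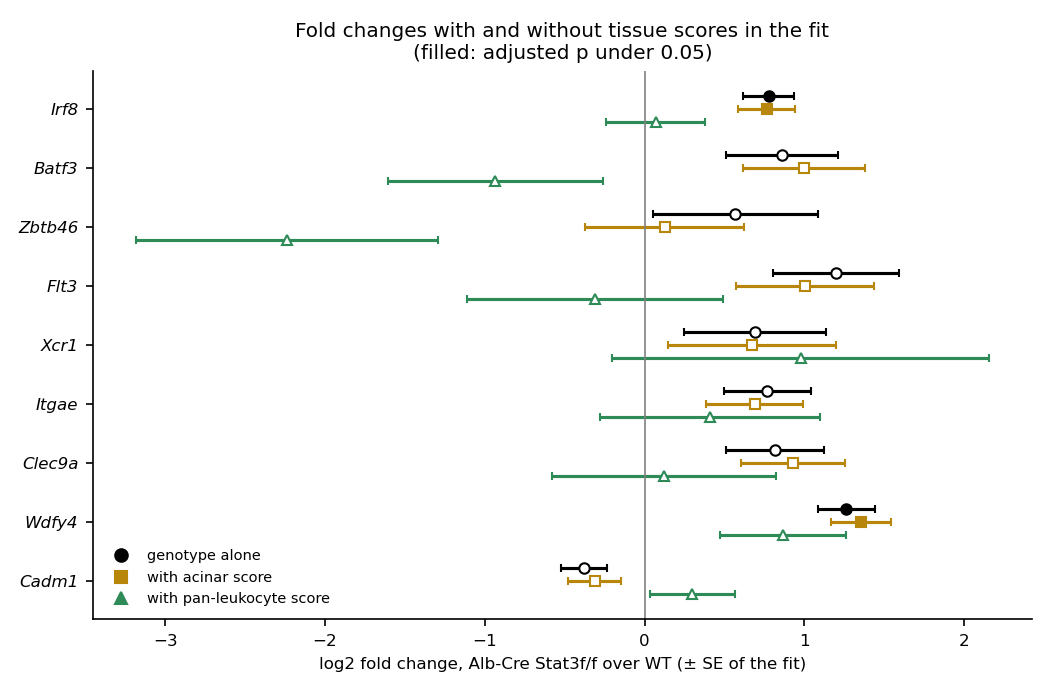
Log2 fold change, Alb-Cre Stat3f/f over WT, of the 9 genes with genotype alone (circles), with the acinar score (squares) and with the pan-leukocyte score (triangles) in the fit; bars are the SE of the fit and filled symbols passed an adjusted p of 0.05. Wdfy4 and Irf8 are filled without and with the acinar score, and no symbol is filled with the pan-leukocyte score.

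How the genes varied among tumours of the same host was examined on log2 CPM with each host's mean removed. Over 36 pairs of genes, 26 had a positive Pearson r and 0 passed Benjamini-Hochberg adjustment (5 had an unadjusted permutation p under 0.05). Among these 5, Irf8, Zbtb46 and Clec9a each ran against Cadm1, with Pearson r = -0.72, -0.66 and -0.59 (adjusted permutation p = 0.207, 0.284 and 0.331). Their Spearman rho with Cadm1 was -0.73, -0.62 and -0.54. The rest of the 5 were positive, Irf8 with Batf3 and Flt3 with Zbtb46 (Pearson r = 0.65, adjusted permutation p = 0.331). Irf8 and Batf3 were the closest pair, with Pearson r = 0.84 (permutation p = 0.00249, adjusted 0.0896) and Spearman rho = 0.76 (permutation p = 0.0114, adjusted 0.150) over 12 tumours, and r = 0.80 without WT 1 and WT 2. Wdfy4 and Irf8 had Pearson r = 0.26 (permutation p = 0.427, adjusted 0.698) and Spearman rho = 0.34 (permutation p = 0.309, adjusted 0.505), and r = 0.64 without Alb-Cre Stat3f/f 3 and WT 4. The hosts differed in sign for this pair, with r = -0.37 within Alb-Cre Stat3f/f and 0.89 within WT tumours. Clec9a and Xcr1, the most restricted pair, had Pearson r = 0.57 (permutation p = 0.169, adjusted 0.467) and Spearman rho = 0.58 (permutation p = 0.125, adjusted 0.380), with r = 0.44 without WT 1 and WT 6. Their r was -0.23 within Alb-Cre Stat3f/f and 0.67 within WT tumours. For Irf8 and Batf3 it was 0.68 and 0.97.

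The same was done for each gene against 6 scores, the mean log2 CPM of pan-leukocyte, monocyte and macrophage, B cell, T cell, ductal and acinar genes, which gave 54 relations. Both relations that passed adjustment were with monocyte and macrophage markers. Batf3 had Pearson r = 0.94 (permutation p = 0.00011, adjusted 0.00594) and Spearman rho = 0.89 (permutation p = 0.00046, adjusted 0.0248), with r = 0.93 without Alb-Cre Stat3f/f 2 and 4, and r = 0.94 within Alb-Cre Stat3f/f as well as within WT tumours. Irf8 had Pearson r = 0.89 (permutation p = 0.00058, adjusted 0.0157) and Spearman rho = 0.85 (permutation p = 0.00135, adjusted 0.0365), with r = 0.87 without the same 2 tumours, 0.85 within Alb-Cre Stat3f/f and 0.93 within WT tumours. Clec9a had Pearson r = 0.61 (permutation p = 0.0482, adjusted 0.283) and Spearman rho = 0.41 (permutation p = 0.196, adjusted 0.530), with r = 0.74 without the same 2 tumours. Wdfy4 had Pearson r = 0.22 (permutation p = 0.514, adjusted 0.766) and Spearman rho = 0.17 (permutation p = 0.617, adjusted 0.925), with r = 0.39 without them. Within Alb-Cre Stat3f/f tumours r was 0.22 for Clec9a and -0.22 for Wdfy4, and within WT tumours 0.88 and 0.77. Whether these values differ from those of Batf3 and Irf8 was not tested. None of the 9 genes passed against the B cell score, where Wdfy4 had Pearson r = 0.22 (permutation p = 0.522, adjusted 0.766), Spearman rho = 0.24 (permutation p = 0.460, adjusted 0.776) and r = 0.39 without Alb-Cre Stat3f/f 6 and WT 5. The highest r of Wdfy4 with any score was 0.59, with T cell markers (permutation p = 0.0509, adjusted 0.283). Spearman rho there was 0.56 (permutation p = 0.072, adjusted 0.399). This r was 0.73 without WT 2 and Alb-Cre Stat3f/f 6, 0.30 within Alb-Cre Stat3f/f and 0.87 within WT tumours. These relations were chosen after the values of the genes were seen.

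**Figure D4:**
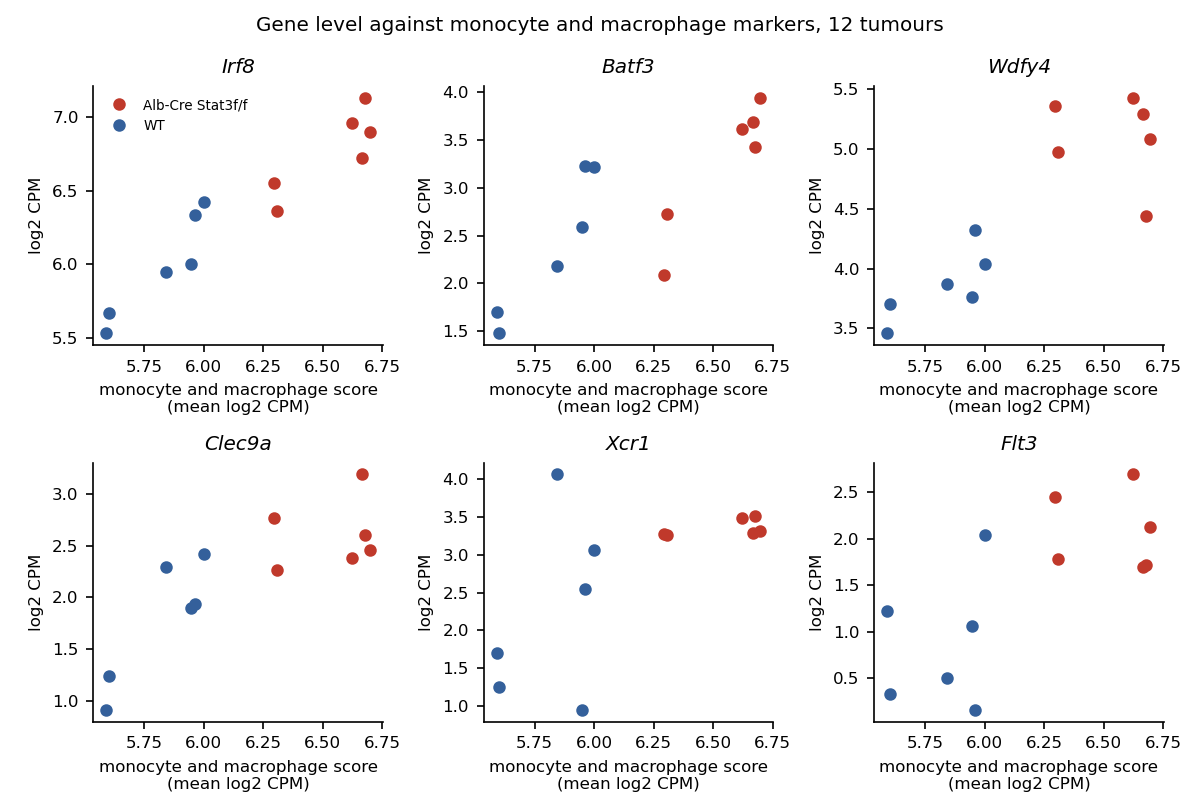
Log2 CPM of 6 genes against the mean log2 CPM of 12 monocyte and macrophage markers, 1 point per tumour, red for Alb-Cre Stat3f/f and blue for WT. Irf8 and Batf3 climb with the score inside each host (Irf8 with r of 0.85 in Alb-Cre Stat3f/f, against 0.93 in WT, and Batf3 with 0.94 in each), and Xcr1 spans 9.31 to 11.1 CPM in Alb-Cre Stat3f/f, against 1.63 to 16.5 CPM in WT tumours.

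The 5 genes most like each of Wdfy4, Irf8 and Flt3 were taken by Pearson r of log2 CPM over the 12 tumours with the host means removed, as a description. For Irf8 they were Ptprc, which encodes the leukocyte antigen CD45 (r = 0.95), Was, a regulator of actin in blood cells (0.89), Agtrap (0.88), Mrpl58 (0.87) and H2-Eb1, an MHC class II chain (0.86). Ptprc also rose, at 137 ± 24.1 CPM in Alb-Cre Stat3f/f, against 79.3 ± 21.7 CPM in WT tumours (SD, n = 6 each), a log2 fold change of 0.79 ± 0.16 (edgeR adjusted p = 0.0143). For Wdfy4 they were Snhg7 (0.92), Wdr5b (0.89), Cd84, a leukocyte surface receptor (0.89), Cep97 (0.89) and Tle2 (0.88), and for Flt3 they were Fbxo30 (0.85), Ube2d-ps (0.83), Naf1 (0.83), Fam96a (0.82) and Nfatc1 (0.81).

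The lists of related genes are read beside the 2.23% of all genes called higher and 0.747% called lower. Of 18 other genes associated with cDC1, 15 were tested, of which 2 rose, 13 did not pass and 0 fell; 13 of the 15 fold changes were positive, with a median log2 fold change of 0.45. Naaa, a lysosomal amidase, had 30.7 ± 4.13 CPM in Alb-Cre Stat3f/f, against 18.4 ± 3.92 CPM in WT tumours (SD, n = 6 each), a log2 fold change of 0.74 ± 0.15 (edgeR adjusted p = 0.0125), and its groups did not overlap. Ifi205, an interferon-inducible gene, rose by 1.09 ± 0.25 on the log2 scale (edgeR adjusted p = 0.0225). Id2, a factor of dendritic cell and innate lymphoid development that other cells also express, had 488 ± 49.0 CPM in Alb-Cre Stat3f/f, against 566 ± 67.1 CPM in WT tumours (SD, n = 6 each), a log2 fold change of -0.21 ± 0.10 (edgeR adjusted p = 0.260). Itgax, encoding CD11c of dendritic cells and macrophages, had 33.6 ± 11.01 CPM in Alb-Cre Stat3f/f, against 24.7 ± 5.53 CPM in WT tumours, a log2 fold change of 0.45 ± 0.20 (edgeR adjusted p = 0.226).

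Genes for the growth, attraction and products of cDC1 had a median log2 fold change of 0.67 over 13 tested of 16, with 11 positive, 1 risen, 0 fallen and 12 not past the test. The 1 that rose was Cxcl10, a chemokine for activated T cells, with 12.7 ± 6.48 CPM in Alb-Cre Stat3f/f, against 5.61 ± 0.53 CPM in WT tumours (SD, n = 6 each; log2 fold change 1.19 ± 0.26, edgeR adjusted p = 0.0172). Of 20 genes of the cross-presentation route, all tested, 5 rose (2.23% of all genes), 15 did not pass and 0 fell; 13 fold changes were positive, with a median of 0.21. Cybb and Rac2, parts of the phagosome oxidase that limits antigen breakdown in dendritic cells, rose by 0.84 ± 0.13 and 0.79 ± 0.17 on the log2 scale (edgeR adjusted p = 0.00173 and 0.0184). Ctss, a lysosomal protease, rose by 0.69 ± 0.12, and Tap1, a subunit of the peptide transporter of the endoplasmic reticulum, by 1.12 ± 0.23 (edgeR adjusted p = 0.00308 and 0.0220). Sec22b, a vesicle fusion protein, had a log2 fold change of -0.03 ± 0.11 and Rab43 of 0.50 ± 0.17 (edgeR adjusted p = 0.926 and 0.108); both were named after their values were seen. Most genes of this route work in many cell types.

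Some markers of neighbouring dendritic cell types rose, where 2.23% of all genes did. Of 11 tested cDC2 markers 3 rose, 8 did not pass and 0 fell, with 9 positive fold changes and a median of 0.50. Those that rose were Clec10a, a lectin, by 1.22 ± 0.19, Clec4a2, an inhibitory lectin, by 0.88 ± 0.19, and Itgam, encoding CD11b, by 0.78 ± 0.18 (edgeR adjusted p = 0.00176, 0.0154 and 0.0200). Over the pan-leukocyte genes these markers differed by 0.48, 0.09 and 0.00 on the log2 scale (adjusted exact permutation p = 0.0616, 0.542 and 0.983). The part of monocytes and macrophages in their levels was not tested. Irf4, a transcription factor of cDC2, had 5.92 ± 1.28 CPM in Alb-Cre Stat3f/f, against 2.61 ± 1.23 CPM in WT tumours (SD, n = 6 each). Its log2 fold change was 1.18 ± 0.33 (edgeR adjusted p = 0.0573), and its groups did not overlap. Of 8 tested mature dendritic cell markers 2 rose, 0 fell and 6 did not pass, with a median of 0.14: Ccl17, a chemokine, by 1.12 ± 0.20 and Ccr7, the receptor that guides them to lymph nodes, by 1.14 ± 0.28 (edgeR adjusted p = 0.00422 and 0.0274). Of the 8 fold changes 5 were positive. Those of Cacnb3, Fscn1 and Socs2 were negative, at -0.66 ± 0.24, -0.14 ± 0.11 and -0.02 ± 0.11 (edgeR adjusted p = 0.132, 0.513 and 0.936). Of 8 tested plasmacytoid markers 7 did not pass, 0 fell and 1 rose, Pacsin1, by 1.03 ± 0.25 (edgeR adjusted p = 0.0275), with a median of 0.79. Klk1 of that list, which the exocrine pancreas also expresses, had a log2 fold change of 2.57 ± 1.02, with 1142 ± 965 CPM in Alb-Cre Stat3f/f, against 192 ± 214 CPM in WT tumours (SD, n = 6 each; edgeR adjusted p = 0.202), and the part of acinar tissue in it was not tested.

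Markers of cells that share genes with cDC1 were counted in the same way, again beside 2.23% of all genes called higher. Of 12 monocyte and macrophage markers 8 rose and 0 fell, with a median of 0.68, and their summed level was 1781 to 2683 CPM in Alb-Cre Stat3f/f, against 1241 to 1825 CPM in WT tumours. Among them Mertk, a receptor for dying cells, rose by 0.97 on the log2 scale, Ly6c2, a marker of inflammatory monocytes, by 1.77, and the complement genes C1qb and C1qc by 0.60 and 0.61 (edgeR adjusted p = 0.00176, 0.00281, 0.00714 and 0.0117). Of 8 pan-leukocyte genes 6 rose and 0 fell, with a median of 0.77. The smallest p were those of Arhgdib, Coro1a, Laptm5 and Lcp1, at log2 fold changes of 0.78, 0.77, 0.61 and 0.87 (edgeR adjusted p = 0.00422, 0.00757, 0.0113 and 0.0117). Of 15 tested acinar genes 0 passed, with a median of 2.54, and the smallest edgeR adjusted p were 0.216 for Pnliprp1 and 0.237 for Prss2. Of 11 tested T cell markers 1 rose, Cd247, a chain of the T cell receptor complex, by 1.42 ± 0.35 (edgeR adjusted p = 0.0283), and 0 fell, with a median of 1.02, and their summed level was 50.6 to 106 CPM in Alb-Cre Stat3f/f, against 19.1 to 52.9 CPM in WT tumours. Of 5 tested B cell markers 0 passed, with a median of 2.25, and their summed level was 7.48 to 59.9 CPM in Alb-Cre Stat3f/f, against 4.89 to 25.5 CPM in WT tumours. Among B cell markers, Cd79b had a log2 fold change of 1.41 ± 0.42 (edgeR adjusted p = 0.0723), and Cd79a was at 0 counts in all 12 tumours. Cd79b had 213 counts over the Alb-Cre Stat3f/f and 103 over the WT tumours, and why Cd79a had none was not tested. Cd8a is in both the T cell list and that of other cDC1-associated genes. The part of these cells in the levels of Wdfy4 and Irf8 was not tested beyond the scores above.

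**Figure D5:**
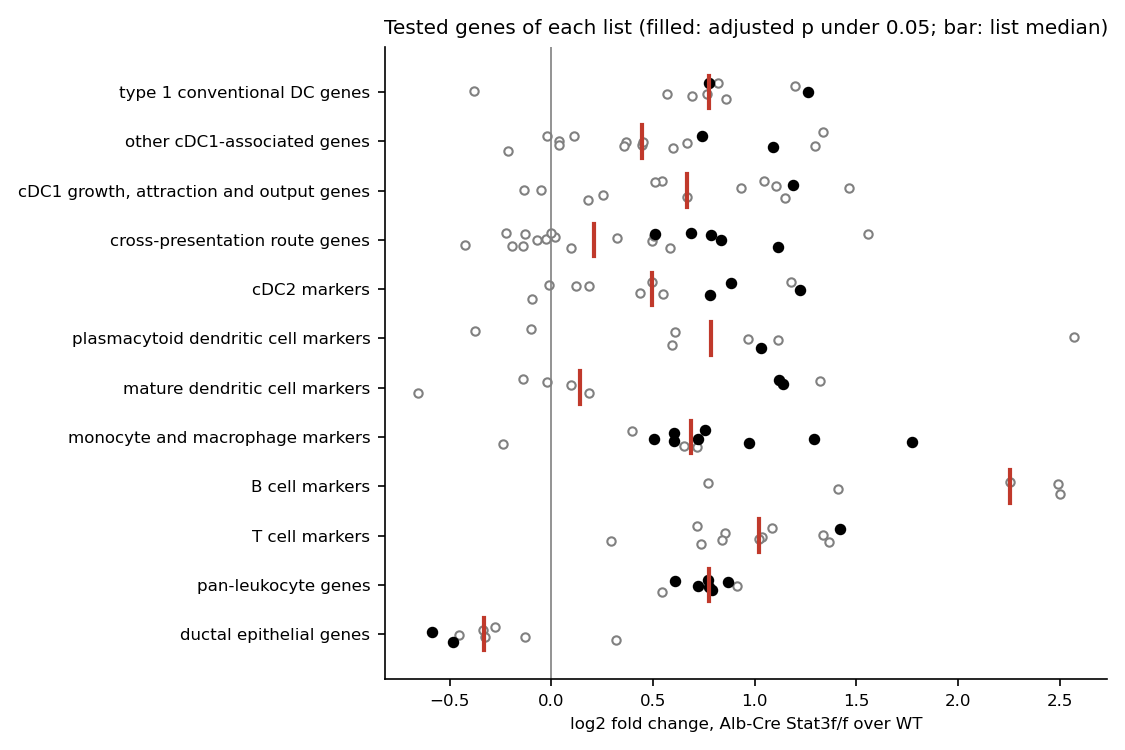
Log2 fold change, Alb-Cre Stat3f/f over WT, of the tested genes of each list; filled points passed an adjusted p of 0.05 and the bar is the list median. The cDC1 genes have a median of 0.78, close to the 0.77 of pan-leukocyte genes and above the 0.45 of other cDC1-associated genes.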

How the data were processed

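Gene expression was measured in 12 tumours, 6 from Alb-Cre Stat3f/f and 6 from WT hosts. The deposited values are raw counts per gene symbol, not normalised. Libraries were made with a QuantSeq 3′ FWD kit (Lexogen) from RNA isolated with an RNeasy FFPE kit, per the labels' protocols. STAR and the build mm10 are named by the submitters' processing notes; versions, counting tool, annotation and strand setting were not given in the sources used here. The labels mention no molecular identifiers. The 26 of 24982 entries with a date number for a symbol were left out (0.0690 to 0.166% of counts). Of the 24956 symbols, 97.9% matched 1 GENCODE M21 gene (GRCm38).

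Counts were analysed with edgeR 4.0.16 in R 4.3.3 (filterByExpr, minimum count 10; TMM; robust quasi-likelihood test, two-sided; Benjamini-Hochberg over 12856 genes). DESeq2 1.42.0 was an alternative. Scores are mean log2 CPM with prior count 2. Permutation tests were exact over 924 relabellings, or used 100000 draws within host for correlations. Planned adjustments over the members alone were replaced by adjustment over all genes. The pipeline was tested on simulated data. Named genes were the 9 members; in each list up to 4 genes past the threshold, or the 2 with the smallest p; the 5 genes most like Wdfy4, Irf8 and Flt3; and Itgax, Flt3l, Xcl1, Id2, Irf4 and Ptprc. Stat3, Sec22b, Rab43 and Klk1 were added after their values were seen; 1 gene the rule names is not reported here. Members and lists were chosen with earlier results of these data known. The labels give no batch, and their sample numbers put all Alb-Cre Stat3f/f tumours before all WT tumours, so an effect of that order cannot be told apart from genotype. Libraries of the same host differed by a chi-square per gene of at least 12.6.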

Additional observations from a re-analysis of the deposited data

Results flagged for a closer look

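Zbtb46 had 4.09 CPM in WT 5, from 25 counts, and the next highest WT tumour had 1.78 CPM. The gap was 0.639 of the range of the 6 WT tumours, above Dixon's 95% critical value for a group of 6. In all, 20 groups were examined, the 9 genes and the acinar share in each host, and 1 stood out, which is about the 1 in 20 that chance gives. WT 5 was also the WT tumour with the largest acinar share, 19.7% of counts. It had the highest pan-leukocyte and B cell scores of the WT tumours as well, 5.44 and 2.18. With the host means removed, Zbtb46 and the acinar score had Pearson r = 0.57 over 12 tumours (permutation p = 0.0525, adjusted 0.283) and Spearman rho = 0.60 (permutation p = 0.0526, adjusted 0.355), with r = 0.57 without Alb-Cre Stat3f/f 5 and WT 6. Against the pan-leukocyte score Zbtb46 had Pearson r = 0.75 (permutation p = 0.0106, adjusted 0.191) and Spearman rho = 0.64 (permutation p = 0.0375, adjusted 0.320). This r was 0.64 without WT 6 and Alb-Cre Stat3f/f 4, 0.76 within Alb-Cre Stat3f/f and 0.75 within WT tumours. Which of these scores goes with the level in WT 5 was not tested. With the acinar score in the edgeR fit the log2 fold change of Zbtb46 was 0.13 ± 0.499, against 0.57 ± 0.52 without it.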

How the results depend on the processing

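The number of cDC1 genes called higher, 2, was 1 (Wdfy4) without the 5 acinar-rich tumours, with the replicate block and with glmTreat against a fold of 1.2 (where 0.607%, 1.13% and 0.778% of all genes were called higher), and 0 with the pan-leukocyte score as covariate; leaving out each tumour gave 2 to 3, with Flt3 added without WT 2. The calls over all genes, 287 higher and 96 lower, were 617 and 290 with the DESeq2 Wald test, 141 and 39 with the acinar score, 1 and 0 with the pan-leukocyte score, 83 and 14 without the acinar-rich tumours, 145 and 44 with the replicate block and 100 and 12 with glmTreat. Leaving out each tumour gave 141 to 471 higher and 37 to 222 lower. The replicate number pairs no samples by the labels: deviations of same-numbered tumours correlated at -0.513 to 0.127, and 1 of 12 tumours correlated best with its own number. With the pan-leukocyte score, the log2 fold changes of Batf3 (-0.93), Flt3 (-0.31), Zbtb46 (-2.24) and Cadm1 (0.30) changed sign. The remaining fold changes of the 9 genes kept their sign in all settings run. Relative to pan-leukocyte genes, 1 gene was called, Cadm1, which was lower, as were 70.9% of all genes. With each tumour left out, 1 to 2 were called, with Cadm1 lower in every set. The second was called higher: Wdfy4 without WT 4 or without Alb-Cre Stat3f/f 3, and Flt3 without WT 2. Shares of all genes called with a tumour left out were not counted relative to pan-leukocyte genes. There, with each tumour left out, Irf8 ran from -0.073 to 0.076, Batf3 from -0.060 to 0.31, Clec9a from -0.12 to 0.19, Itgae from -0.14 to 0.12, Xcr1 from 0.0051 to 0.72 and Zbtb46 from -0.32 to 0.13; with Ptprc alone as denominator Irf8 was -0.027, and with monocyte and macrophage markers Itgae was 0.043. The difference in acinar share was 12.9 to 20.3 percentage points with each tumour left out, and its exact permutation p was above 0.05 in 8 of 12 such sets (0.00866 to 0.0671). Causes of these changes were not tested. No member fell under the low count filter, so no test of such genes was run; at 10 CPM in 6 tumours 3 of the 9 were left. Depth limits precision most for Zbtb46 and Flt3: counting error alone gives coefficients of variation of 28.1% and 20.2% in Alb-Cre Stat3f/f tumours and 30.9% and 27.4% in WT tumours, below the observed 45.0% and 32.5% in Alb-Cre Stat3f/f and 91.6% and 63.4% in WT tumours.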

Other observations

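Across the 9 genes, Alb-Cre Stat3f/f 1 was among the 3 highest of 12 tumours for 7 genes, and WT 6 among the 3 lowest for 8. WT 6 had the lowest pan-leukocyte score, 4.75, and Alb-Cre Stat3f/f 1 the highest, 6.09.

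The spread of Xcr1 within Alb-Cre Stat3f/f tumours, a coefficient of variation of 8.32%, was below the 12.8% that counting error alone gives at its mean count, and within WT tumours it was 91.7% against 14.4%. In WT 3, Xcr1 reached 16.5 CPM from 132 counts, while Clec9a had 4.62 CPM there. Wdfy4 had a coefficient of variation of 22.5% within Alb-Cre Stat3f/f, and of 21.7% within WT tumours, against counting errors of 6.81% and 9.48%.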
